A study of Homo sapiens with 12 samples.

Results

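The response of TOM-1 cells to arginine depletion was measured in 6 of the 12 libraries of the series, 3 from control culture and 3 from cells treated with ADI-PEG20, and over every gene of the count table. TOM-1 is a B-cell acute lymphoblastic leukaemia line that carries the Philadelphia chromosome, the fusion of BCR to ABL1, and the labels call it a wild-type lymphoblast from blood. ADI-PEG20 is a pegylated arginine deiminase, which turns the arginine of the medium into citrulline. Cells growing in log phase in RPMI with fetal bovine serum received ADI-PEG20 at 1000 ng/ml or were kept as control, for 24 h in both groups, and poly(A) RNA was sequenced. The other 6 libraries, 3 control and 3 treated with ADI-PEG20 at the same dose and time, came from RS4;11, a B-cell leukaemia line with a KMT2A rearrangement. They entered the fit, so the gene filter and the estimate of spread behind the p-values of TOM-1 rest on both lines. Beyond that they are used here only to ask whether a change differed between the lines. The labels name no vehicle for the control and do not say whether libraries of a group came from separate cultures. The p-values therefore measure the spread between replicate libraries of both lines, which may be technical. All values describe 1 cell line.

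Cells sense a shortage of amino acids through 2 main routes. Uncharged tRNA activates the kinase GCN2, which slows translation initiation and favours translation of the transcription factor ATF4, whose targets include amino acid transporters, tRNA synthetases and stress regulators. In parallel mTORC1, a kinase complex that drives ribosome production, lipid and nucleotide synthesis and glycolysis, is held off the lysosome by sensors such as the sestrins. Arginine can be rebuilt from citrulline by ASS1 and ASL, and cells with little ASS1 depend on arginine from outside.

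Control replicate 3 stood apart from the other TOM-1 libraries, and log2 fold changes, counts and medians are therefore given with and without it. It had counts in 14963 genes, where the other 5 TOM-1 libraries had 20081 to 21997. Its total was 22206152 counts, and the 6 libraries ran from 21870281 to 35956959. Its correlation on the log2 CPM scale across genes was 0.926 and 0.921 with the other controls, which correlated with each other at 0.978. Genes are not independent replicates, and these correlations only describe the libraries. CPM are counts relative to the TMM-scaled total of their library. Shorter transcripts had higher levels in that library: the median log2 fold change of ADI-PEG20 against control ran from -0.17 in the shortest of 5 equal groups of genes by transcript length to 0.38 in the longest, and from -0.07 to 0.16 without that library. The part of length in the results below was not tested, and medians with each library's length trend removed are given beside 5 lists of short genes. Some lists of longer genes moved more when that trend was removed. With all libraries, the median went from 0.28 to 0.04 for B-lineage transcription factors and from 0.39 to 0.11 for ABL1 and STAT5 output. It went from 0.27 to 0.07 for mTORC1 sensors and brakes, and from 0.35 to 0.10 for Toll-like receptors and partners. For ERK feedback and immediate early genes it went from 0.50 to 0.22.

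The 3 genes given as marks of the response were higher in every treated library. TRIB3, a pseudokinase that restrains ATF4 activity, had 50.6, 45.1 and 85.6 CPM in the controls and 935, 881 and 843 CPM with ADI-PEG20 (log2 fold change 3.88, 4.21 without control replicate 3). CHAC1, which degrades glutathione, had 12.7, 12.9 and 13.7 CPM in the controls and 51.8, 51.2 and 51.4 CPM with ADI-PEG20 (log2 fold change 1.98, 2.00 without control replicate 3). SESN2, a leucine sensor that holds back mTORC1, had 45.2, 44.2 and 55.2 CPM in the controls and 204, 207 and 203 CPM with ADI-PEG20 (log2 fold change 2.09, 2.19 without control replicate 3). No treated library overlapped a control for these genes, and the treated libraries were close to each other. In bulk libraries, fewer cells with a transcript and less of it per cell cannot be told apart. The B-lymphoblast label was checked against 13 marker genes, none of which was at 0. Their summed level was 7731 to 8986 CPM in control libraries and 8090 to 8362 CPM in treated ones. Of 15 T-cell markers 8, among them CD3D, CD3E and CD3G, were at 0 in all 6 libraries, as were 5 of 10 NK-cell markers, 7 of 17 myeloid markers including ELANE and S100A8, 8 of 12 erythroid and megakaryocyte markers, and IGHG1 among 9 plasma-cell markers. The summed levels of these lists in control and treated libraries were 210.1 to 349.9 and 213.9 to 225.1 CPM for T cells, 24.9 to 69.1 and 43.5 to 47.3 CPM for NK cells, and 19.3 to 28.97 and 19.2 to 24.4 CPM for myeloid cells. The highest members were TRAC among T-cell markers, at up to 210.3 CPM, NKG7 among NK-cell markers, at up to 69.1 CPM, and MPO among myeloid markers, at up to 20.97 CPM. Those of erythroid and megakaryocyte genes were at most 0.975 CPM in any library. Plasma-cell genes went from 1317 to 1767 CPM in controls to 1774 to 1865 CPM, and XBP1 and IRF4, which TOM-1 expresses, made up most of that sum.

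About 1 gene in 3 passed the test. Of 17349 genes tested, 5527 (31.9%) changed, 2765 higher (15.9%) and 2762 lower (15.9%) with ADI-PEG20, at an adjusted p under 0.05 in the quasi-likelihood test of edgeR. Of these, 2788 changed at least 2-fold. Without control replicate 3, 7616 of 18321 genes (41.6%) changed, 3996 higher (21.8%) and 3620 lower (19.8%). The fits shared 5346 calls, all in the same direction, 2730 higher and 2616 lower. The 3 treated libraries lay all above or all below the 3 controls for 8014 genes (46.2%). The number of genes that rose was 1820 without ADI-PEG20 replicate 2. In what follows "rose" and "fell" mean past that threshold with all libraries, log2 fold changes are ADI-PEG20 over control, and square brackets hold the value without control replicate 3. The median log2 fold change of all tested genes was 0.05, and 0.00 without that library.

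The genes that rose most had varied functions, and of the 10 described here INHBE was in the list of amino acid response genes. The first 5 came from under 1 CPM. TREML2 (ENSG00000112195, chromosome 6, 41190277 to 41201194, minus strand, in GENCODE 29 on GRCh38), a receptor of the TREM family on immune cells, had 0, 0.195 and 0 CPM in the controls and 10.8, 10.3 and 10.1 CPM with ADI-PEG20. SLC16A6 (ENSG00000108932, chromosome 17, 68267026 to 68291267, minus strand), a monocarboxylate transporter, had 0.284, 0 and 0 CPM in the controls and 11.6, 11.6 and 9.05 CPM with ADI-PEG20. Each was seen in 1 control library only, and its fitted log2 fold change (7.22 and 6.48) went to 10.91 or 10.90 when that library was left out and the controls were all at 0, where the fit rests on its prior count, so the sizes are not firm. Without control replicate 3 they were 6.86 and 6.04. DMGDH, a mitochondrial enzyme of choline breakdown, went from 0.284, 0.351 and 0 to 10.7, 12.1 and 9.87 CPM (log2 fold change 5.55 [5.09]). BHLHE40, a transcriptional repressor of the circadian clock, went from 0.256, 0.234 and 0.993 to 23.4, 21.9 and 18.4 CPM (log2 fold change 5.53 [6.40]). The cell adhesion molecule CHL1 went from 0.256, 0.351 and 0 to 7.88, 7.48 and 5.39 CPM (log2 fold change 4.97 [4.5]). For all 5 genes every treated library was above every control. Such separation was a condition for choosing the leading genes in both directions, so it is not a finding about them.

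The other 5 leading genes held a transcription factor, a growth factor subunit, an enzyme and a channel. JUN, a subunit of the AP-1 transcription factor, had 6.05, 3.35 and 2.70 CPM in the controls and 91.8, 96.1 and 79.96 CPM with ADI-PEG20 (log2 fold change 4.44 [4.21]). DHRS2, a short-chain dehydrogenase, went from 2.19, 2.89 and 0.938 to 63.9, 59.9 and 60.9 CPM, and SLFN5, a member of the interferon-induced Schlafen family, from 4.15, 2.34 and 0 to 45.6, 40.4 and 43.5 CPM. INHBE, a subunit of activin E and a known ATF4 target, went from 1.48, 0.663 and 0.497 to 20.4, 20.1 and 21.1 CPM. BEST1, a chloride channel, went from 0.341, 0.975 and 0.883 to 14.04, 10.2 and 13.8 CPM, and shares 14.2% of its exonic sequence with opposite-strand genes. Their log2 fold changes were 4.91 [4.61] for DHRS2, 4.23 [3.69] for SLFN5, 4.48 [4.21] for INHBE, and 4.14 [4.31] for BEST1. The groups did not overlap for any of them, as the choice required.

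**Figure D1:**
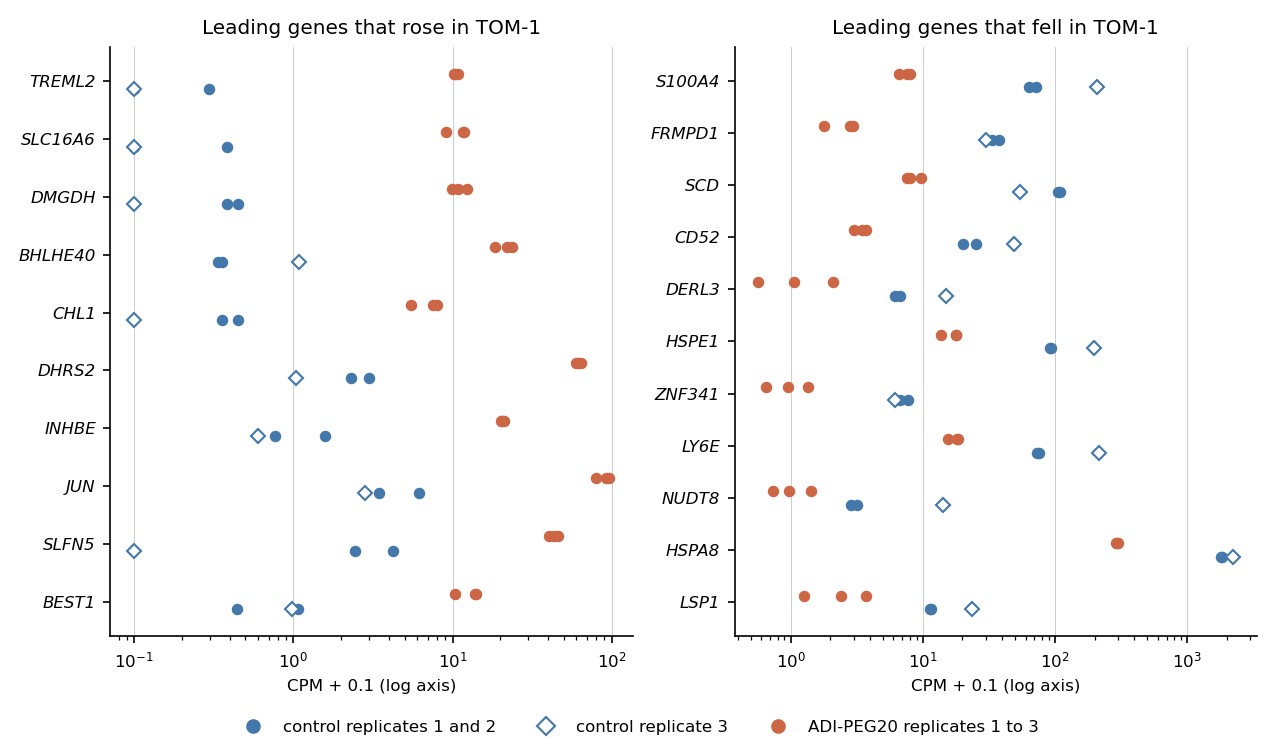
CPM plus 0.1 on a log axis for 10 leading genes that rose (left) and 11 that fell (right), with 1 symbol per TOM-1 library: filled blue circles, control replicates 1 and 2; open diamonds, control replicate 3; orange circles, the 3 ADI-PEG20 libraries. The treated libraries are separated from all controls for each gene, which was a condition of the choice. HSPA8 goes from between 1816 and 2234 CPM to between 289 and 298 CPM.

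The genes that fell most held a lipid desaturase, chaperones, and surface or calcium-binding proteins of lymphocytes. S100A4, a calcium-binding protein linked to cell motility, had 64.1, 71.6 and 209 CPM in the controls and 6.51, 7.44 and 7.87 CPM with ADI-PEG20. Control replicate 3 was the high one, and the log2 fold change of -3.98 was -3.22 without it. SCD (ENSG00000099194, chromosome 10, 100347124 to 100364834, plus strand), which makes monounsaturated fatty acids, had 109.9, 106 and 54.02 CPM in the controls and 7.92, 9.58 and 7.55 CPM with ADI-PEG20 (log2 fold change -3.43, SE 0.24, edgeR adjusted p = 3.66e-06, and -3.69 without control replicate 3). For SCD that library was the lowest control and still lay above all treated ones. HSPA8 (ENSG00000109971, chromosome 11, 123057489 to 123063230, minus strand), the constitutive HSP70 chaperone, had 1822, 1816 and 2234 CPM in the controls and 298, 293 and 289 CPM with ADI-PEG20 (log2 fold change -2.74, SE 0.11, edgeR adjusted p = 1.09e-07, and -2.63 without that library). HSPE1, the co-chaperonin of mitochondrial HSP60, went from 92.5, 93.6 and 199 to 17.8, 17.7 and 13.6 CPM, and shares 14.2% of its exonic sequence with opposite-strand genes. FRMPD1, a scaffold protein, went from 37.7, 33.2 and 30.1 to 2.74, 1.68 and 2.87 CPM, and ZNF341, a zinc finger activator of STAT3 transcription, from 6.68, 7.68 and 6.12 to 0.856, 1.26 and 0.551 CPM. The log2 fold changes were -2.97 [-2.51] for HSPE1, -3.79 [-3.87] for FRMPD1 and -2.93 [-3.00] for ZNF341, with no overlap between groups, as the choice required. ZNF341 shares 10.5% of its exonic sequence with opposite-strand genes.

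CD52, the surface target of alemtuzumab, went from 25.2, 20.05 and 49.3 to 2.91, 3.40 and 3.62 CPM (log2 fold change -3.25 [-2.77]). LY6E, a lipid-anchored surface protein, went from 75.3, 73.5 and 215 to 15.5, 18.3 and 18.2 CPM (log2 fold change -2.80 [-2.10]). LSP1, a lymphocyte actin-binding protein, went from 11.3, 11.5 and 23.3 to 1.16, 2.29 and 3.62 CPM (log2 fold change -2.70 [-2.27]). For these 3 genes control replicate 3 was the highest control, at about 2 times the others or more. NUDT8, a Nudix hydrolase, had a log2 fold change of -2.78 that was -1.61 without it. DERL3, a factor of the degradation of misfolded proteins in the endoplasmic reticulum, had -2.99 and -2.46, but it shares 77% of its exonic sequence with opposite-strand genes and its reads cannot be assigned with certainty.

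The gene lists below were described by their counts and medians. The cell marker lists, several with few tested members, are left out of the ranking that follows. Ranked by median with all libraries (shown in the plot of list medians and calls), amino acid response, NF-kB, FOXO, histone, interferon, circadian and p53 lists were highest, and cytosolic ribosomal proteins, the respiratory chain, mitochondrially encoded genes and heat-shock chaperones lowest.

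**Figure D2:**
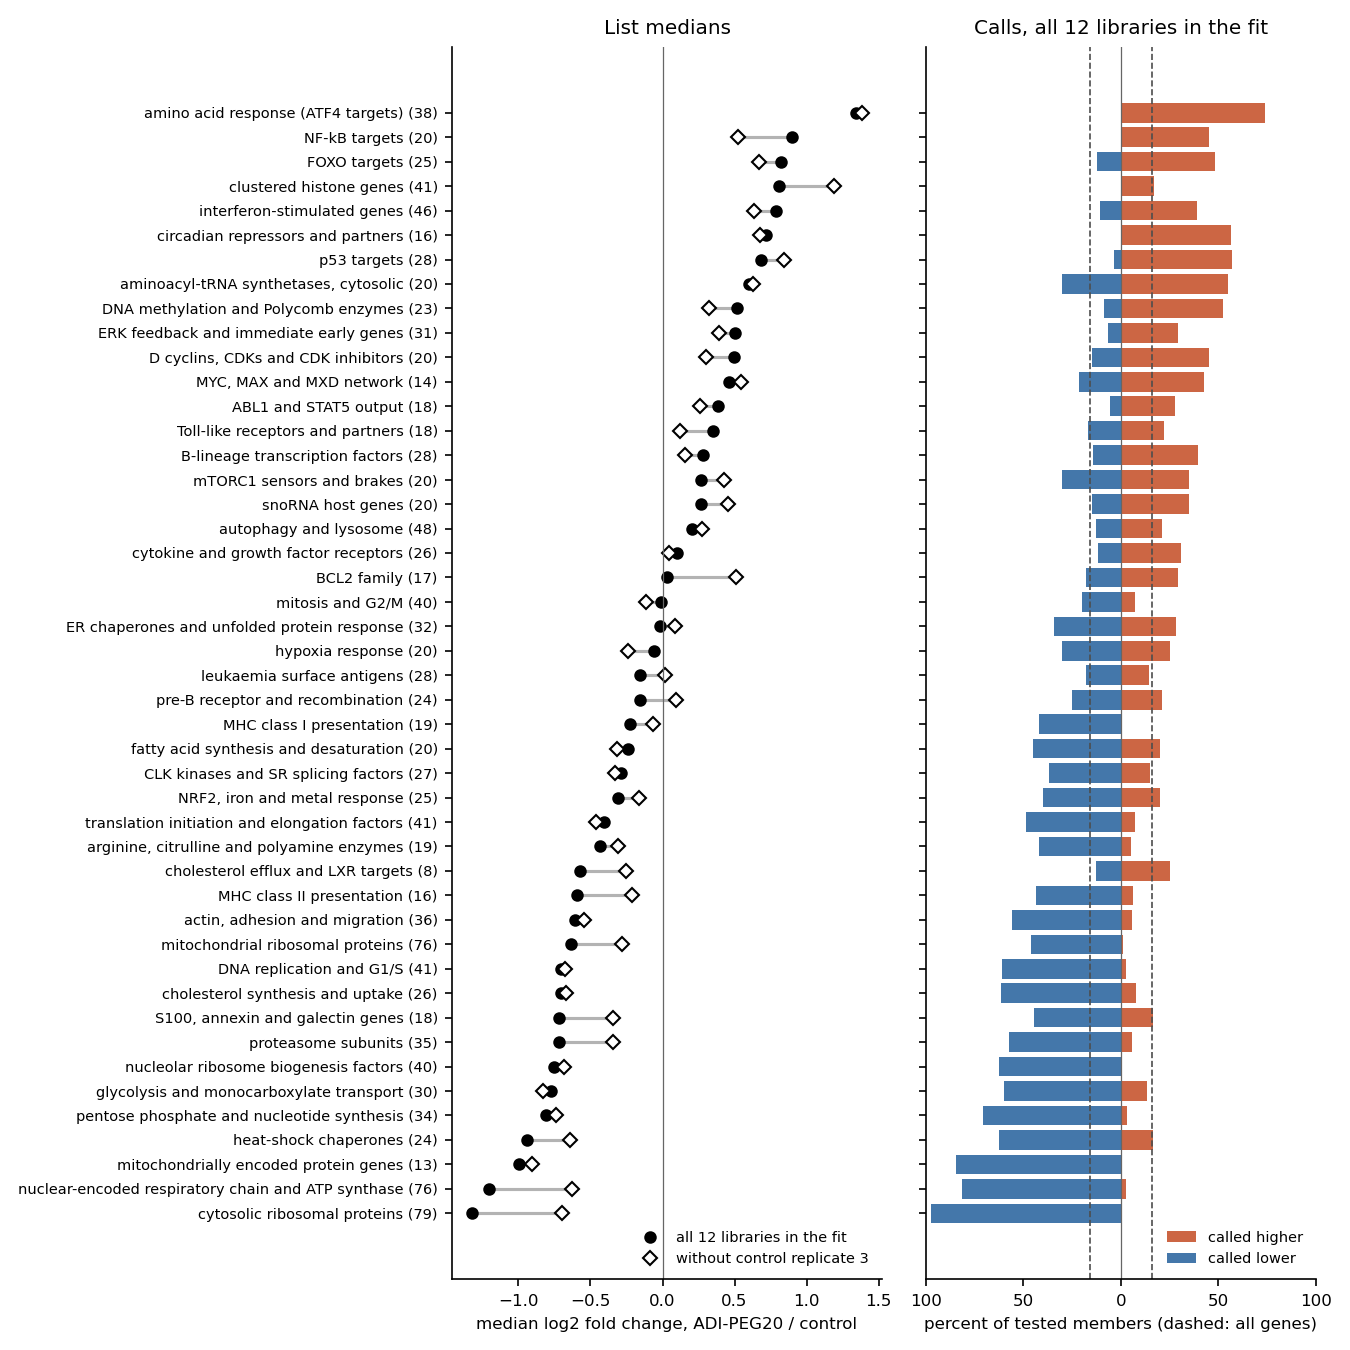
Left, median log2 fold change of each gene list other than the cell marker lists (number of tested members in brackets) with all 12 libraries in the fit (filled circles) and without control replicate 3 (open diamonds). Right, percent of tested members called higher (orange) or lower (blue) with all libraries, with dashed lines at the 15.9% of all genes called in each direction. The median of cytosolic ribosomal proteins moves from -1.32 to -0.70 without control replicate 3, and that of amino acid response genes from 1.34 to 1.38.

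Amino acid response genes rose as a group. Within the list of ATF4 targets 28 of 38 tested members rose and 0 fell [33 and 2], with a median log2 fold change of 1.34 [1.38]. They took 0.526%, 0.520% and 0.511% of counts in the controls and 1.27%, 1.26% and 1.24% with ADI-PEG20. ATF3, a repressor of the same family as ATF4, went from 11.1, 11.2 and 13.4 to 95.6, 96.4 and 92.9 CPM (log2 fold change 3.00 [3.08]), with no overlap between groups. The window from 250 bases before to 50 bases after the transcript start of CHAC1 (RefSeq, GRCh38.p14) held TGATGNAA, the first letters of the composite C/EBP-ATF element, on the minus strand. That motif was searched on both strands and was in 3.62% of 35116 windows of 300 bases, or for at least 1 window in 4.46% of 27305 genes, and in 9 of the 30 list genes with a window, among them ATF3. The 250 bases before the start of CHAC1 are shown because CHAC1 is a mark of the response. They lie at chr15:40953221-40953470 on the plus strand, and capitals mark the match, 209 bases before the start.
CHAC1: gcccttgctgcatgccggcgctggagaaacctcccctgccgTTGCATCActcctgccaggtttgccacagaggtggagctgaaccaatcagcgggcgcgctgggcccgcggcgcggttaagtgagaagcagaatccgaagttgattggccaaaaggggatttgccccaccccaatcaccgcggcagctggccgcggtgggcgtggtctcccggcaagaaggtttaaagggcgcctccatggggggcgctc

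Transcripts of tRNA synthetases moved in both directions. Among cytosolic aminoacyl-tRNA synthetases 11 of 20 tested members rose and 6 fell [12 and 6], with a median of 0.60 [0.63]. WARS1, which charges tryptophan, went from 148, 135 and 169 to 547, 559 and 541 CPM (log2 fold change 1.87 [1.95]), and shares 10.6% of its exonic sequence with opposite-strand genes. SARS1 for serine and AARS1 for alanine rose (log2 fold changes 1.27 [1.45] and 1.22 [1.30]). QARS1 for glutamine moved the other way, from 195, 218 and 298 to 92.9, 89.9 and 91.6 CPM (log2 fold change -1.37 [-1.17]). The groups did not overlap for any of these 4 genes.

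Enzymes of arginine and polyamine metabolism leaned lower. In that list 1 of 19 tested members rose and 8 fell [4 and 9 of 20], with a median of -0.44 [-0.31]. SRM, spermidine synthase, went from 135, 145 and 315 to 65.7, 72.3 and 67.4 CPM (log2 fold change -1.53 [-1.03]). AMD1, which supplies the propylamine group for polyamines, went from 223, 199 and 152 to 99.6, 108 and 94.9 CPM (log2 fold change -0.92 [-1.07]). ALDH18A1, which makes the proline and ornithine precursor, fell as well, from 226, 218 and 195 to 107, 105 and 103 CPM (log2 fold change -1.03 [-1.09]). OAZ1, the antizyme that restrains ornithine decarboxylase, had a log2 fold change of -0.94 [-0.42], and its call was lost without ADI-PEG20 replicate 1 or 3. ASS1 had 0 counts in all 3 controls and 14, 5 and 0 counts with ADI-PEG20, so the groups overlap at 0, and its call (edgeR adjusted p = 0.0266, and 0.0193 without control replicate 3) was lost without ADI-PEG20 replicate 1 or control replicate 1. ASL had a log2 fold change of -0.73 [-0.45] and shares 17.6% of its exonic sequence with same-strand genes. SLC7A1, the main carrier of arginine into cells, had a log2 fold change of 0.94 [0.59], and its call was lost when any ADI-PEG20 library was left out.

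Regulators of mTORC1 moved in both directions. In the list of mTORC1 sensors and brakes 7 of 20 tested members rose and 6 fell [8 and 6], with a median of 0.27 [0.43]. FLCN and FNIP1, partners in the folliculin complex that acts on the Rag GTPases, went from 20.8, 27.5 and 20.1 to 63.96, 72.8 and 81.8 CPM (log2 fold change 1.67 [1.60]) and from 50.6, 44.8 and 16.3 to 133, 119 and 121 CPM (log2 fold change 1.73 [1.38]). DDIT4, a stress-induced inhibitor of mTORC1, went from 145, 139.9 and 155 to 374, 356 and 342 CPM (log2 fold change 1.29 [1.33]). FLCN shares 11.9% of its exonic sequence with same-strand genes, and DDIT4 shares 41.2% of its exonic sequence with opposite-strand genes.

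Genes that build and run ribosomes fell. Of 79 cytosolic ribosomal protein genes, 77 fell and 0 rose, and 76 and 0 without control replicate 3. The size rested on that library: the median log2 fold change was -1.32 [-0.70]. These genes took 9.26%, 8.995% and 19.9% of counts in the controls and 6.07%, 6.03% and 5.92% with ADI-PEG20. The treated libraries were below control replicates 1 and 2 as well, and control replicate 3 was about 2 times above those. With length trends removed the medians were -1.32 and -0.67, with 77 and 76 members lower. RPL7A went from 1888, 1859.5 and 4282 to 752, 718 and 686 CPM (log2 fold change -1.90 [-1.39]), and shares 12.7% of its exonic sequence with same-strand genes. RPS9 and RPS15 had log2 fold changes of -2.07 [-1.21] and -1.97 [-1.2].

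Nucleolar factors, which process ribosomal RNA, depended less on that library. In their list 0 of 40 tested members rose and 25 fell [2 and 30], with a median of -0.75 [-0.68]. NHP2, a protein of the pseudouridylation particles, went from 68.5, 65.8 and 144 to 19.8, 26.04 and 20.6 CPM (log2 fold change -2.07 [-1.60]). NOP16 fell (log2 fold change -1.71 [-1.36]). BOP1, of the complex that matures the large subunit, and FBL, the ribosomal RNA methyltransferase fibrillarin, had log2 fold changes of -1.66 and -1.51, and -1.06 and -0.91 without that library. NHP2 shares 27.4% of its exonic sequence with opposite-strand genes and NOP16 shares 19.9% of its exonic sequence with opposite-strand genes. CACGTG, the E-box that MYC and related factors bind, was in 7.26% of the 35116 promoter windows, or 8.77% of the 27305 genes, and in 15 of the 34 nucleolar genes with a window, FBL among them.

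Translation factors and mitochondrial ribosomal proteins followed in part. For the list of initiation and elongation factors 3 of 41 tested members rose and 20 fell [6 and 26], with a median of -0.41 [-0.46]. EIF5A, which carries the polyamine-derived residue hypusine, went from 501, 481 and 983 to 206, 224 and 216 CPM (log2 fold change -1.61 [-1.19]). EIF3B had -1.35 and -0.99, and EIF3G -1.32 and -0.63. PDCD4, an inhibitor of the helicase EIF4A, rose instead, from 89.5, 97.7 and 47.6 to 169.6, 180.2 and 179 CPM (log2 fold change 1.17 [0.91]), and shares 28.1% of its exonic sequence with opposite-strand genes. Among mitochondrial ribosomal proteins 1 of 76 tested members rose and 35 fell [9 and 36], with a median of -0.63 [-0.28], and medians of -0.66 and -0.29 with length trends removed. MRPL14 went from 48.8, 48.2 and 118 to 18.5, 22.9 and 16.3 CPM (log2 fold change -1.90 [-1.34]). MRPL4 and MRPL23 had log2 fold changes of -1.87 and -2.21, or -1.25 and -1.15 without that library. MRPL4 shares 21.4% of its exonic sequence with opposite-strand genes.

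More host genes of small nucleolar RNAs rose than fell. In that list 7 of 20 tested members rose and 3 fell [12 and 4], with a median of 0.27 [0.46], and 4 rose without ADI-PEG20 replicate 3. The share that fell was close to the 15.9% of all genes. SNHG4 went from 47.3, 46.6 and 58.7 to 9.50, 9.81 and 10.3 CPM (log2 fold change -2.37 [-2.25]), and SNHG3 fell (log2 fold change -1.34 [-1.10]). SNHG12 went from 35.98, 43.1 and 60.97 to 111, 109 and 102 CPM (log2 fold change 1.2 [1.44]). SNHG4 shares 14.01% of its exonic sequence with same-strand genes and SNHG3 shares 10.96% of its exonic sequence with same-strand genes.

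Respiratory chain genes fell, from both genomes. Of 76 nuclear-encoded subunits, 62 fell and 2 rose, and without control replicate 3, 62 fell and 3 rose, with a median of -1.2 [-0.63]. These are short genes, and with length trends removed the medians were -1.20 and -0.59. ATP5MC1, a ring subunit of the ATP synthase, went from 91.7, 87.3 and 256 to 25.9, 21.99 and 20.1 CPM (log2 fold change -2.68 [-1.99]). COX6B1 of complex IV and NDUFS5 of complex I had log2 fold changes of -2.08 and -2.06, and -1.32 and -1.44 without that library. Control replicate 3 was the highest control for all 3, and the treated libraries lay below each of the other controls too. Of the 13 protein genes encoded in mitochondrial DNA, 11 fell and 0 rose, and 13 fell without control replicate 3, with a median of -1.0 [-0.91], and medians of -0.91 and -0.81 with length trends removed. They took 2.08%, 2.11% and 1.36% of counts in the controls and 1.17%, 1.13% and 1.30% with ADI-PEG20. In these shares of raw counts control replicate 3 was close to the treated libraries, whereas the other controls lay above both. On the TMM scale used in the test the summed levels were 21302, 21385 and 16627 CPM in the controls. They were 10967, 10617 and 11963 CPM with ADI-PEG20, so on that scale control replicate 3 also lay above all treated libraries. MT-CO3 went from 1939.9, 1915 and 2507 to 901, 903 and 1017 CPM (log2 fold change -1.17 [-1.04]), and MT-ATP6 from 2011, 1977 and 1458 to 799, 814 and 929.9 CPM (log2 fold change -1.10 [-1.24]).

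**Figure D3:**
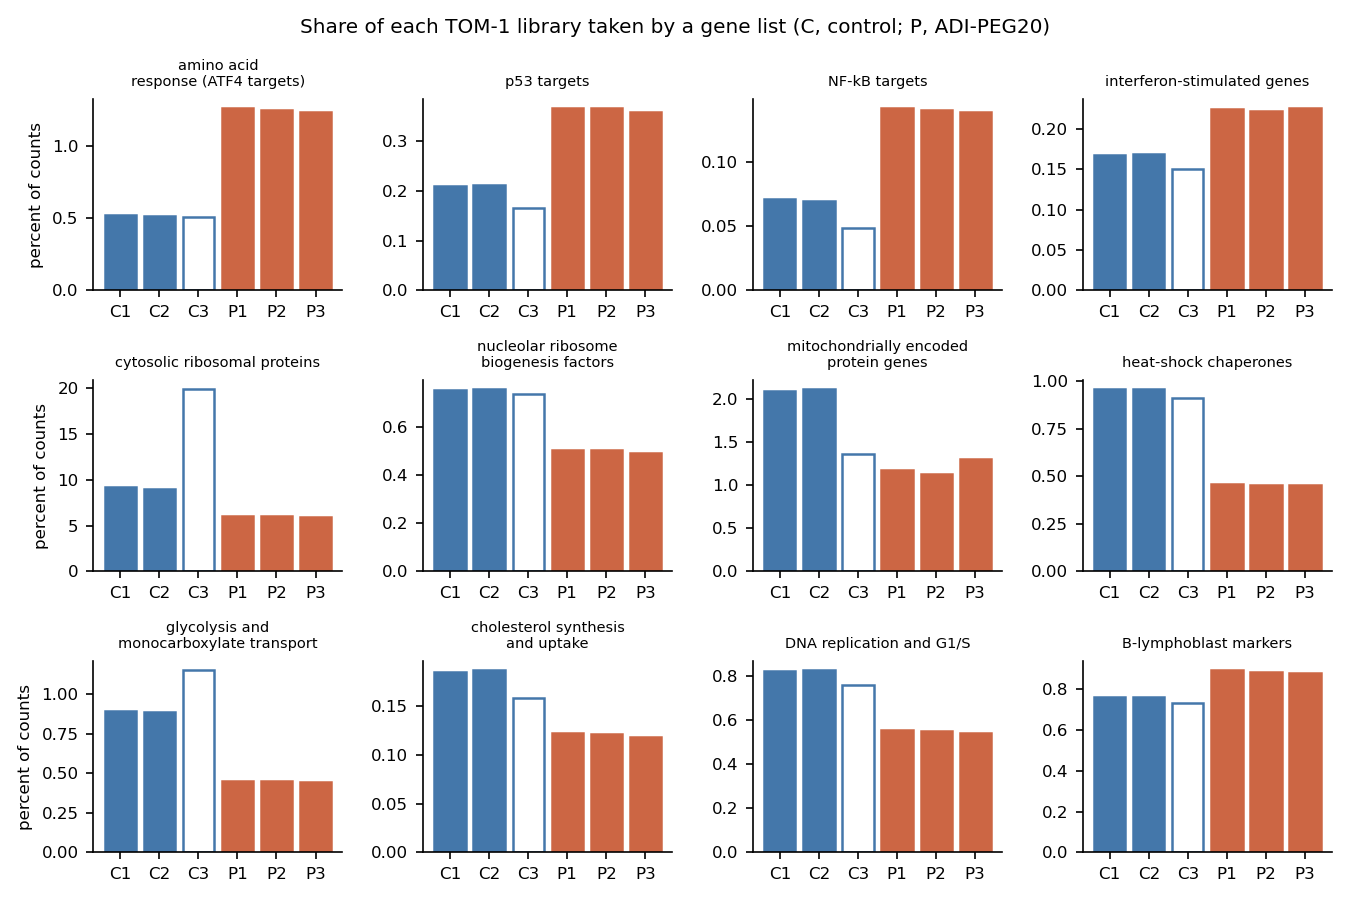
Percent of the counts of each TOM-1 library taken by the genes of 12 lists, with C1 to C3 the control replicates (C3 open) and P1 to P3 the ADI-PEG20 replicates, 1 bar per library. The 3 treated libraries are alike in each panel, and C3 departs from C1 and C2 most for cytosolic ribosomal proteins (19.9% against 9.26% and 8.995%).

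Many transcripts of cholesterol synthesis and uptake and of fatty acid synthesis fell. In the list of cholesterol synthesis and uptake 2 of 26 tested members rose and 16 fell [2 and 19], with a median of -0.70 [-0.67]. DHCR7, of the last step, went from 56.3, 56.2 and 54.4 to 15.3, 12.8 and 14.3 CPM (log2 fold change -1.98, SE 0.12, edgeR adjusted p = 1.22e-06, and -2.00 without control replicate 3). MVD and EBP, of the same pathway, had log2 fold changes of -2.07 [-1.50] and -2.06 [-1.05]. Among genes of fatty acid synthesis 4 of 20 tested members rose and 9 fell [5 and 10 of 21], with a median of -0.24 [-0.31]. FASN, fatty acid synthase, went from 560.4, 589 and 442 to 177, 186 and 180.2 CPM (log2 fold change -1.55 [-1.67]), and the desaturase FADS2 from 229.9, 228 and 296 to 89.8, 100.1 and 95.7 CPM (log2 fold change -1.40 [-1.27]). SREBF1, which encodes a regulator of these genes, fell (log2 fold change -0.67 [-0.48]), and MYLIP, a ubiquitin ligase and LXR target, rose, from 8.81, 9.17 and 7.78 to 19.3, 14.2 and 15.2 CPM (log2 fold change 0.92 [0.85]). Both are in the list of cholesterol efflux and LXR targets. There 2 of 8 tested members rose and 1 fell [2 and 3], with a median of -0.57 [-0.25].

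Most genes of glycolysis fell. Across the list of glycolysis and monocarboxylate transport 4 of 30 tested members rose and 18 fell [5 and 20], with a median of -0.78 [-0.83]. These genes took 0.893%, 0.886% and 1.15% of counts in the controls and 0.453%, 0.454% and 0.447% with ADI-PEG20. PKM, pyruvate kinase, went from 1252, 1274 and 2203 to 397, 370.3 and 366 CPM (log2 fold change -2.06 [-1.74]), and LDHA, lactate dehydrogenase A, from 852, 798 and 1059 to 300.2, 307 and 292 CPM (log2 fold change -1.59 [-1.46]). LDHB had a log2 fold change of -2.10 [-1.26] and shares 33.4% of its exonic sequence with same-strand genes. HK2, the first enzyme, was not called (-0.08) with all libraries and was lower without control replicate 3 (-0.38, edgeR adjusted p = 8.86e-05). TXNIP, a brake on glucose uptake, rose, from 52.8, 61.4 and 41.05 to 229.9, 223 and 216 CPM (log2 fold change 2.11 [1.97]). Transcripts of the hypoxia list did not move together, since 5 of 20 tested members rose and 6 fell [5 and 8], with a median of -0.06 [-0.24]. HIF1A itself went from 198, 181 and 81.1 to 577, 561 and 522 CPM (log2 fold change 1.85 [1.54]) and VEGFA from 34.8, 32.6 and 22.01 to 84.4, 84.1 and 82.99 CPM (log2 fold change 1.49 [1.31]), whereas LDHA and HILPDA (log2 fold change -1.50 [-1.25]) fell. HILPDA shares 13.2% of its exonic sequence with same-strand genes.

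Genes of nucleotide supply and DNA replication fell too. For the pentose phosphate pathway and nucleotide synthesis 1 of 34 tested members rose and 24 fell [1 and 29], with a median of -0.81 [-0.74], where the value without control replicate 3 is -0.76 with a gene at 0 in a group set to its bound. NME1, a nucleoside diphosphate kinase, went from 86.5, 83.1 and 239 to 20.8, 23.8 and 24.2 CPM (log2 fold change -2.57 [-1.89]), and shares 18.6% of its exonic sequence with same-strand genes. TKT, transketolase, went from 484, 472 and 748 to 193, 191 and 198 CPM (log2 fold change -1.55 [-1.30]). TALDO1 and APRT had -1.86 and -1.72, or -1.2 and -1.01 without that library. Of the list of DNA replication and G1/S 1 of 41 tested members rose and 25 fell [2 and 29], with a median of -0.70 [-0.67]. UNG, which removes uracil from DNA, went from 89.9, 82.1 and 78.3 to 20.2, 21.6 and 21.3 CPM (log2 fold change -1.99, SE 0.13, edgeR adjusted p = 1.91e-06, and -2.03 without that library). MCM5 of the replicative helicase went from 265, 257 and 402 to 104, 98.3 and 89.3 CPM (log2 fold change -1.66 [-1.43]). GINS2 and the polymerase subunit POLD1 fell (log2 fold changes -1.82 [-1.41] and -1.55 [-1.37]).

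Mitotic genes did not share that direction. In the list of mitosis and G2/M 3 of 40 tested members rose and 8 fell [8 and 11], with a median of -0.01 [-0.11]. NDC80, of the outer kinetochore, went from 51.2, 45.1 and 54.7 to 138, 140.5 and 136 CPM (log2 fold change 1.46 [1.52]), and HMMR from 52.1, 54.7 and 33.5 to 107, 115 and 113 CPM (log2 fold change 1.25 [1.06]). CKS2, a CDK partner, and PTTG1, securin, fell (log2 fold changes -1.40 [-1.08] and -1.26 [-0.74]). Shares of counts for this list were 0.508%, 0.494% and 0.390% in the controls and 0.504% to 0.513% with ADI-PEG20. The summed levels were 5189, 5004 and 4776 CPM in the controls and 4755, 4832 and 4642 CPM with ADI-PEG20.

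The CDK inhibitors CDKN1A and CDKN1B rose, and CDKN2C fell. Within the list of D cyclins, CDKs and CDK inhibitors 9 of 20 tested members rose and 3 fell [11 and 3], with a median of 0.50 [0.30], and 5 rose without ADI-PEG20 replicate 2. CDKN1A, the p21 inhibitor, had 95.7, 88.2 and 127 CPM in the controls and 351, 357 and 327 CPM with ADI-PEG20 (log2 fold change 1.74, SE 0.14, edgeR adjusted p = 7.16e-06, and 1.90 without control replicate 3). BTG1, an antiproliferative gene often deleted in B-cell leukaemia, went from 82.8, 78 and 111 to 334, 329 and 324 CPM (log2 fold change 1.86 [2.03]), and shares 10.4% of its exonic sequence with same-strand genes. RB1, the retinoblastoma protein, went from 239, 233 and 79.2 to 482, 490.5 and 444 CPM (log2 fold change 1.36 [1.0]), and CDKN1B, the p27 inhibitor, from 126, 118 and 86.1 to 195, 201 and 187 CPM (log2 fold change 0.82 [0.67]). CDKN2C, the p18 inhibitor, moved the other way, from 111, 123 and 175 to 49.9, 50.7 and 47.8 CPM (log2 fold change -1.46 [-1.25]). CCND3, the D cyclin of B-cell precursors, was not called in either fit (-0.24 [-0.10]). CCND2 was not called with all libraries (0.39) and was higher without control replicate 3 (0.54, edgeR adjusted p = 0.00069), and shares 13.8% of its exonic sequence with same-strand genes.

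MYC fell and a MYC antagonist rose. MYC had 462, 426 and 490.4 CPM in the controls and 305, 289 and 279 CPM with ADI-PEG20, with no overlap, and it fell (log2 fold change -0.66, SE 0.10, edgeR adjusted p = 0.000452, or -0.61 without control replicate 3). MXD1, which competes with MYC for MAX, went from 4.18, 6.75 and 2.87 to 15.6, 22.6 and 19.1 CPM (log2 fold change 2.05 [1.82]), whereas MXD4 fell (log2 fold change -0.96 [-0.82]). In the list of the network 6 of 14 tested members rose and 3 fell [9 and 3], with a median of 0.46 [0.54].

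Activators of cell death moved both ways, and the survival genes BCL2 and MCL1 were not called. PMAIP1 and BBC3, the BH3-only proteins NOXA and PUMA, went from 86.4, 75.04 and 58.3 to 247, 252 and 238 CPM and from 13.8, 12.9 and 26.5 to 53.5, 63.6 and 57.03 CPM. Their log2 fold changes were 1.74 and 1.72, and 1.60 and 2.12 without control replicate 3. BCL2L11, which encodes the BH3-only protein BIM, fell, from 34.02, 40.5 and 28.1 to 22.8, 19.3 and 23.99 CPM (log2 fold change -0.64 [-0.76]), as did BID (-1.31 [-1.05]). BCL2 had 229, 234 and 104 CPM in the controls and 193, 206 and 182 CPM with ADI-PEG20, where control replicate 3 was below and the other controls above all treated libraries. Its log2 fold change was 0.03 (edgeR adjusted p = 0.957) and -0.26 without that library (edgeR adjusted p = 0.00821). MCL1 was near its controls 1 and 2 in every treated library, with a log2 fold change of 0.20 [-0.04], neither called. In the BCL2 family list 5 of 17 tested members rose and 3 fell [8 and 4], with a median of 0.03 [0.51]. BCL2L11 shares 10.9% of its exonic sequence with opposite-strand genes.

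Targets of p53 and FOXO leaned higher. Of the p53 list 16 of 28 tested members rose and 1 fell [19 and 1], with a median of 0.68 [0.84]. PLK2, a stress-induced kinase, went from 1.45, 3.20 and 2.92 to 21.1, 21.04 and 22.5 CPM (log2 fold change 3.10 [3.23]). TNFRSF10B, the death receptor DR5, went from 23.3, 24.8 and 15.8 to 107, 114 and 102 CPM (log2 fold change 2.33 [2.16]). Some genes of this list, DR5 and NOXA among them, are also known targets of ATF4 or CHOP, and the lists do not separate these routes. Of the FOXO list 12 of 25 tested members rose and 3 fell [13 and 5], with a median of 0.82 [0.67]. KLF6, a zinc finger tumour suppressor, went from 38.8, 42.4 and 15.7 to 163, 169 and 153 CPM (log2 fold change 2.32 [1.99]), and FBXO32, a ubiquitin ligase, from 0.909, 1.68 and 0.717 to 6.04, 6.15 and 5.51 CPM (log2 fold change 2.41 [2.20]).

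**Figure D4:**
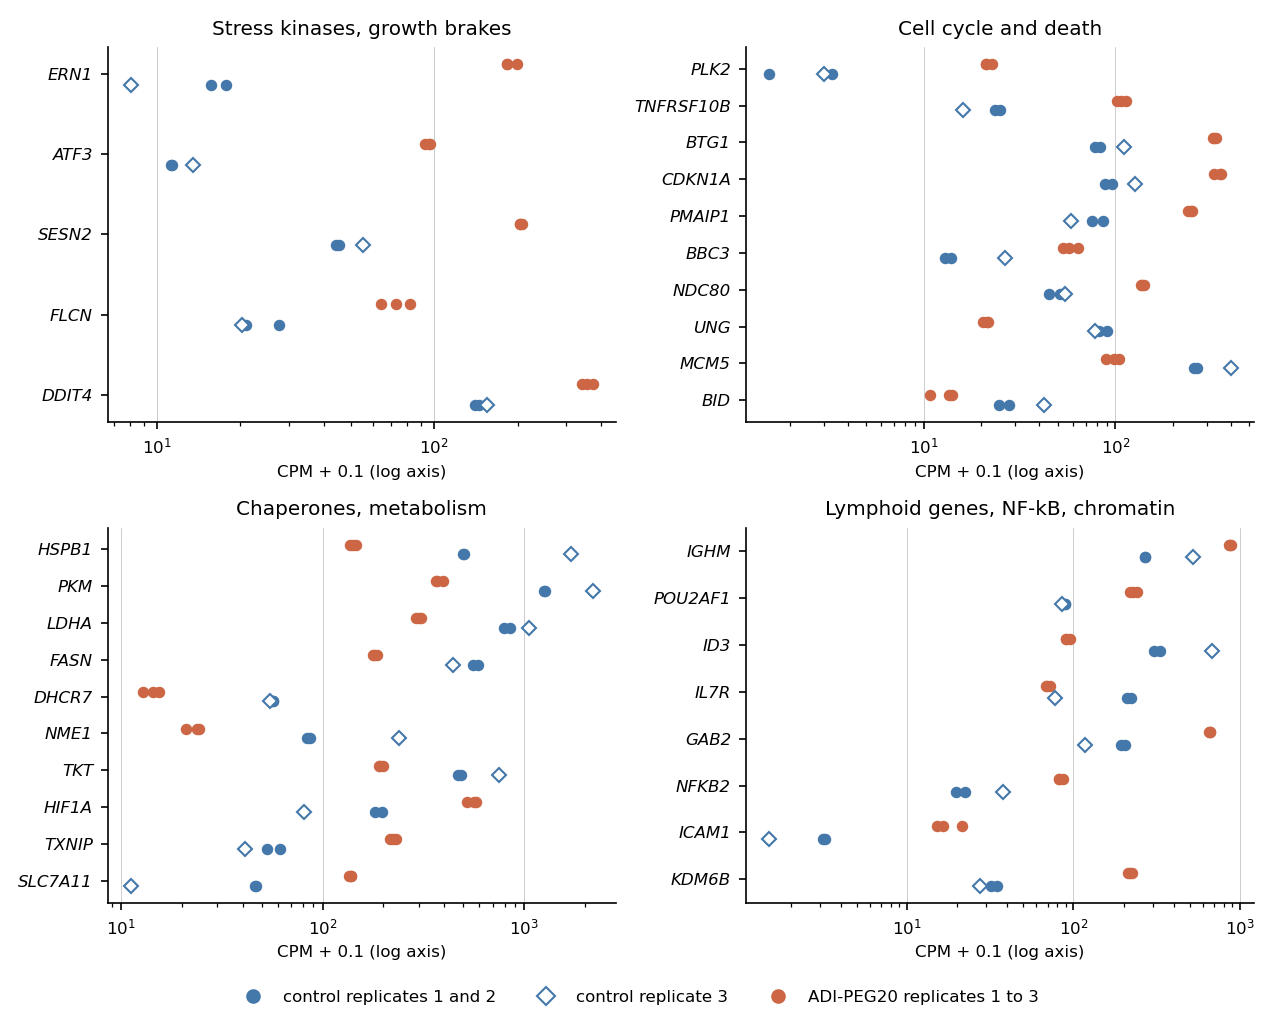
CPM plus 0.1 on a log axis for genes of 4 groups of processes, with 1 symbol per TOM-1 library as in the plot of leading genes. Treated libraries lie apart from all controls for every gene shown, and for IL7R control replicate 3, at 77.1 CPM, is nearest to them.

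Part of the NF-kB targets and immediate early genes rose. In the NF-kB list 9 of 20 tested members rose and 0 fell [10 and 1], with a median of 0.90 [0.52], and the genes took 0.0713%, 0.0699% and 0.0485% of counts in the controls and 0.142%, 0.141% and 0.139% with ADI-PEG20. NFKB2, the p100 precursor, went from 19.7, 22.2 and 37.6 to 82.2, 81.4 and 86.7 CPM (log2 fold change 1.66 [1.99]). TNFAIP3, the A20 feedback inhibitor, went from 212, 202 and 103 to 630.1, 617 and 593 CPM (log2 fold change 1.83 [1.56]), and ICAM1, an adhesion receptor, from 3.01, 3.12 and 1.38 to 16.4, 21.2 and 15.1 CPM (log2 fold change 2.79 [2.52]). BCL3, a nuclear co-activator of NF-kB, went from 4.92, 6.05 and 8.77 to 28.7, 34.4 and 26.2 CPM (log2 fold change 2.19 [2.44]). ICAM1 shares 23.6% of its exonic sequence with opposite-strand genes. Of the immediate early and ERK feedback genes 9 of 31 tested members rose and 2 fell [14 and 2 of 32], with a median of 0.50 [0.40], and 5 rose without ADI-PEG20 replicate 1. JUN and ATF3, described above, led them, while the phosphatase DUSP2 went from 23.1, 23.3 and 36.2 to 8.86, 10.04 and 8.14 CPM (log2 fold change -1.61 [-1.37]).

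Interferon-stimulated genes split. In that list 18 of 46 tested members rose and 5 fell [22 and 6], with a median of 0.79 [0.63]. The share that fell was under the 15.9% [19.8%] of all genes. XAF1, an activator of apoptosis, went from 43.96, 45.2 and 4.69 to 198, 203 and 193 CPM (log2 fold change 2.65 [2.15]), and its control replicate 3 was far below the other controls. XAF1 shares 38.3% of its exonic sequence with opposite-strand genes. OAS1, which makes the activator of RNase L, went from 2.36, 1.09 and 1.38 to 8.09, 9.39 and 8.34 CPM (log2 fold change 2.39 [2.28]). IFIT3, a binder of foreign RNA, went from 2.73, 1.52 and 0.772 to 7.58, 7.94 and 9.01 CPM (log2 fold change 2.24 [1.91]). BST2, which tethers budding virus, fell instead, from 82.1, 91.2 and 218 to 25.99, 25.8 and 25.3 CPM (log2 fold change -2.34 [-1.76]). GAAANNGAA, most of the interferon-stimulated response element, was in 8.11% of the 35116 windows on either strand, or 9.86% of the 27305 genes, and in 26 of the 36 list genes with a window, BST2 among them. IFIT3 is shown as a member that rose. RefSeq gives it 2 windows on the plus strand of chromosome 10, and the 250 bases before each start, chr10:89327747-89327996 and chr10:89332279-89332528, hold 2 and 3 matches, all on the minus strand and marked by capitals. None overlapped another of the motifs searched.
IFIT3, first start: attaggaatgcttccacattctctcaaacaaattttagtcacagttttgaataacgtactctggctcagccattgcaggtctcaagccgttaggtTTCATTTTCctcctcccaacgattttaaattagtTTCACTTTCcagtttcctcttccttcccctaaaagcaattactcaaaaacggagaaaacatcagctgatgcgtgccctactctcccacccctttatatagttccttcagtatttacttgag
IFIT3, second start: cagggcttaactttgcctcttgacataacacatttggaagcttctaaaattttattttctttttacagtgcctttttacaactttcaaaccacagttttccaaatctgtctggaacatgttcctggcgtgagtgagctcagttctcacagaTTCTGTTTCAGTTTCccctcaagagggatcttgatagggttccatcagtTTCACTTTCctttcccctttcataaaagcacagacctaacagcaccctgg

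More genes of antigen presentation fell than rose. In the MHC class I list 0 of 19 tested members rose and 8 fell [5 and 9], with a median of -0.22 [-0.07], and 5 fell without ADI-PEG20 replicate 1, 2 or 3. They took 0.746%, 0.751% and 1.09% of counts in the controls and 0.928%, 0.906% and 0.887% with ADI-PEG20, so the treated libraries lay above control replicates 1 and 2 and below control replicate 3. The loading chaperones CALR and PDIA3 fell (log2 fold changes -1.16 [-0.85] and -0.90 [-0.79]), and PDIA3 shares 18.9% of its exonic sequence with opposite-strand genes. In the class II list 1 of 16 tested members rose and 7 fell [2 and 7 of 17], with a median of -0.59 [-0.21], and 4 fell without ADI-PEG20 replicate 3. CD74, the invariant chain, went from 2486, 2364 and 4149 to 1514, 1468 and 1401 CPM (log2 fold change -1.04 [-0.73]), and HLA-DQB1 from 28.2, 29.4 and 44.5 to 14.5, 15.2 and 12.9 CPM (log2 fold change -1.26 [-1.02]). HLA genes resemble each other, and reads can be assigned to the wrong copy.

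Chaperones fell, and the endoplasmic reticulum genes divided. In the heat-shock list 4 of 24 tested members rose and 15 fell [6 and 16 of 25], with a median of -0.94 [-0.64], and the genes took 0.958%, 0.955% and 0.912% of counts in the controls and 0.459%, 0.452% and 0.453% with ADI-PEG20. All 3 controls were alike in that share. Of this list 1 rose without ADI-PEG20 replicate 2 and 2 rose without ADI-PEG20 replicate 3. HSPB1, the small heat-shock protein HSP27, went from 504, 497 and 1714 to 146, 142 and 136 CPM (log2 fold change -2.68 [-1.83]), and HSPA8 and HSPE1 are given above. HSPA1A went from 5.60, 7.45 and 8.72 to 0.899, 1.60 and 2.36 CPM (log2 fold change -2.15 [-2.00]), and has a near-identical copy, HSPA1B, so its reads are uncertain. GAANNTTC, a pair of the repeats that heat-shock factor binds, was in 6.77% of the 35116 windows, or 8.21% of the 27305 genes, and in 12 of the 23 list genes with a window, HSPA8, HSPB1 and HSPA1A among them. The motif reads the same on both strands. The bases before the start of HSPA8 are shown because HSPA8 is a leading gene that fell and holds the motif. They lie at chr11:123062137-123062386 on the minus strand, and hold 2 matches, 230 and 50 bases before the start, in capitals.
HSPA8: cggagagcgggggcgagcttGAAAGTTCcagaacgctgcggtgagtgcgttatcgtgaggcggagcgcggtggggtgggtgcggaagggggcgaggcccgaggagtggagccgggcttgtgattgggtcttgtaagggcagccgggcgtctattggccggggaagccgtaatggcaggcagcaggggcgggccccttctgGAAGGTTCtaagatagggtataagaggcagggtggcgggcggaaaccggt

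For the endoplasmic reticulum and the unfolded protein response 9 of 32 tested members rose and 11 fell [12 and 13], with a median of -0.01 [0.08]. ERN1 (ENSG00000178607, chromosome 17, 64039142 to 64130819, minus strand), the stress sensor IRE1, had 17.6, 15.5 and 7.95 CPM in the controls and 184, 199 and 184 CPM with ADI-PEG20 (log2 fold change 3.78, SE 0.25, edgeR adjusted p = 2.17e-06, and 3.50 without control replicate 3). SEL1L, of the degradation complex, went from 113, 117 and 34.3 to 259, 253 and 255 CPM (log2 fold change 1.54 [1.15]), and the chaperone cofactor SDF2L1 from 29.8, 24.5 and 116 to 10.96, 13.2 and 11.1 CPM (log2 fold change -2.27 [-1.21]). XBP1, whose transcript IRE1 splices, rose (log2 fold change 0.48 [0.57]), a call lost without ADI-PEG20 replicate 2. Spliced and unspliced XBP1 cannot be told apart in gene counts.

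Proteasome genes leaned lower, and single genes of autophagy rose. In the proteasome list 2 of 35 tested members rose and 20 fell [4 and 21], with a median of -0.72 [-0.34]. PSME1 and PSME2, the caps of the immunoproteasome, had log2 fold changes of -1.58 and -1.64, and -1.10 and -1.11 without that library. PSMB1 and PSMB3 of the core had -1.53 and -1.84, and -1.07 and -1.02. Among genes of autophagy and the lysosome 10 of 48 tested members rose and 6 fell [21 and 6], with a median of 0.21 [0.28], the first of which is 0.27 with 2 genes at 0 in a group set to their bounds. With all libraries the share that rose was little above the 15.9% of all genes, and the share that fell was under it. MAP1LC3B, the LC3 protein of autophagosomes, had 81.1, 82.3 and 96.7 CPM in the controls and 286, 287 and 289 CPM with ADI-PEG20 (log2 fold change 1.73 [1.81]). The cargo receptors OPTN and TAX1BP1 went from 35.9, 39.04 and 48.2 to 131, 145 and 133 CPM and from 34.95, 34.9 and 19.1 to 77.5, 77.9 and 67.9 CPM (log2 fold changes 1.73 and 1.32, 1.86 and 1.09 without that library). GAA, the lysosomal glucosidase, fell (log2 fold change -1.28 [-1.11]). Of the same list 3 fell without ADI-PEG20 replicate 2.

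Genes of B-cell identity changed selectively. PAX5, the B-lineage commitment factor, was not called in either fit and had 933, 945 and 443 CPM in the controls and 950.2, 942 and 925 CPM with ADI-PEG20, close in all libraries but control replicate 3. CD22, a target of antibody therapy, was not called either (0.09 [0.09]). MS4A1, which encodes CD20, was not called with all libraries (-0.36) and was lower without control replicate 3 (-0.50, edgeR adjusted p = 0.000325). IGHM, the immunoglobulin mu heavy chain, had 268, 268 and 524 CPM in the controls and 885, 860.3 and 872 CPM with ADI-PEG20 (log2 fold change 1.30 [1.70]), with every treated library above control replicate 3, the highest control. IGKC, the kappa light chain, went from 3.98, 1.99 and 9.82 to 19.8, 21.2 and 19.9 CPM (log2 fold change 1.96 [2.74]). POU2AF1, a co-activator of immunoglobulin genes, went from 89.3, 89.4 and 84.9 to 242, 229 and 218 CPM (log2 fold change 1.39 [1.36]), and EBF1, which acts beside PAX5, from 163, 169 and 80.1 to 276, 263 and 271 CPM (log2 fold change 0.98 [0.70]). BACH2, a repressor in B cells, went from 142, 130.5 and 54.6 to 293, 294 and 275 CPM (log2 fold change 1.40 [1.07]). ID3, an inhibitor of E proteins, fell, from 304, 332 and 675 to 89.8, 95.4 and 90.5 CPM (log2 fold change -2.25 [-1.79]). For the list of B-lineage transcription factors 11 of 28 tested members rose and 4 fell [13 and 8], with a median of 0.28 [0.15], and 6 rose without ADI-PEG20 replicate 1 and 7 rose without ADI-PEG20 replicate 2 or 3.

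Genes of the pre-B receptor and of recombination went both ways, since 5 of 24 tested members rose and 6 fell [8 and 9], with a median of -0.16 [0.10], and 2 rose without ADI-PEG20 replicate 1 or 2 and 3 rose without ADI-PEG20 replicate 3. PTPN6, the SHP1 phosphatase that restrains receptor signals, fell, from 124, 131 and 206 to 46.2, 47.6 and 53.8 CPM (log2 fold change -1.64 [-1.38]), and LIG4, of the end-joining step, rose (log2 fold change 1.09 [0.75]). VPREB1, of the surrogate light chain, had a log2 fold change of -1.22 [-0.50], and its call was lost without ADI-PEG20 replicate 2. In the list of leukaemia surface antigens 4 of 28 tested members rose and 5 fell [7 and 9], with a median of -0.16 [0.02]. With all libraries both shares were close to the 15.9% of all genes called in each direction. The median without control replicate 3 is -0.14 once genes at 0 in a group are set to their bounds. Of this list 1 rose without ADI-PEG20 replicate 1 or 3 and 2 rose without ADI-PEG20 replicate 2 or control replicate 1. CD69, an activation marker, went from 1.42, 3.24 and 1.82 to 12.4, 11.99 and 9.68 CPM (log2 fold change 2.39 [2.30]).

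Single genes of signalling routes changed, while several lists had shares of calls near the 15.9% of all genes in 1 or both directions. GAB2, an adaptor that BCR-ABL1 uses, had 204, 193 and 117 CPM in the controls and 660.1, 659.9 and 656 CPM with ADI-PEG20 (log2 fold change 1.94 [1.73]), with treated libraries nearly equal. Across the list of ABL1 and STAT5 output 5 of 18 tested members rose and 1 fell [8 and 2], with a median of 0.39 [0.26], and 3 rose without ADI-PEG20 replicate 1. The kinases PIM1 and PIM2, both STAT5 targets, moved apart, with log2 fold changes of 1.01 [0.87] and -0.95 [-0.98]. IL7R, the interleukin-7 receptor, had 210.1, 221 and 77.1 CPM in the controls and 68.5, 72.5 and 69.7 CPM with ADI-PEG20 (log2 fold change -1.27 [-1.62]), where control replicate 3 was close to the treated libraries. IL17RA went from 3.30, 2.34 and 1.32 to 9.55, 8.55 and 6.73 CPM (log2 fold change 1.80 [1.53]). Of the cytokine and growth factor receptors 8 of 26 tested members rose and 3 fell [8 and 7 of 27], with a median of 0.10 [0.05], and 4 rose without ADI-PEG20 replicate 1 or 2. Among Toll-like receptors and their partners 4 of 18 tested members rose and 3 fell [7 and 4], with a median of 0.35 [0.12]. The adaptors TRAF6 and IRAK4 rose (log2 fold changes 0.86 [0.74] and 0.81 [0.62]) and the trafficking chaperone UNC93B1 fell (-0.90 [-0.52]).

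Genes of cell shape and motility leaned lower. Of the list of actin, adhesion and migration 2 of 36 tested members rose and 20 fell [4 and 26 of 37], with a median of -0.61 [-0.54]. PFN1, profilin, went from 1018, 1018 and 2327 to 419, 438 and 418 CPM (log2 fold change -1.78 [-1.26]), and VIM, vimentin, from 229, 238 and 507 to 79.2, 84.1 and 77.6 CPM (log2 fold change -2.02 [-1.54]). VIM shares 24.4% of its exonic sequence with opposite-strand genes. TMSB10, which binds free actin, had a log2 fold change of -2.08 [-1.19]. ITGA6, a laminin receptor, rose, from 11.96, 9.71 and 6.57 to 35.8, 34.9 and 39.6 CPM (log2 fold change 1.96 [1.76]). Among S100, annexin and galectin genes 3 of 18 tested members rose and 8 fell [3 and 7], with a median of -0.72 [-0.34]. ANXA6, a membrane-binding annexin, went from 162, 145 and 226 to 56.3, 57.04 and 50.9 CPM (log2 fold change -1.70 [-1.49]), and LGALS9, galectin 9, and S100A16 fell (log2 fold changes -1.97 [-1.40] and -1.56 [-1.03]).

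Clock genes and enzymes of DNA methylation and Polycomb leaned higher. In the circadian list 9 of 16 tested members rose and 0 fell [10 and 0], with a median of 0.72 [0.67]. Beside BHLHE40, NR1D2, the REV-ERB beta receptor, went from 26.3, 24.5 and 11.1 to 56.2, 57.8 and 55.4 CPM (log2 fold change 1.45 [1.15]), and TEF and PER2 rose (log2 fold changes 1.42 [1.64] and 0.99 [0.75]). Of the enzymes of DNA methylation and Polycomb 12 of 23 tested members rose and 2 fell [14 and 3], with a median of 0.52 [0.32]. KDM6B, a demethylase of the Polycomb mark, had 31.9, 34.6 and 27.3 CPM in the controls and 223, 218 and 214 CPM with ADI-PEG20 (log2 fold change 2.80 [2.72]). KDM6A, the X-linked relative of KDM6B, had a log2 fold change of 1.47 [1.07]. Histone genes, most of whose transcripts lack a poly(A) tail, were measured on poly(A) RNA. Of these 7 of 41 tested members rose and 0 fell [14 and 0 of 46], with a median of 0.81 [1.19], and 2 rose without ADI-PEG20 replicate 1 and 4 rose without ADI-PEG20 replicate 2 and 3 rose without ADI-PEG20 replicate 3. The share that rose was close to the 15.9% of all genes. With length trends removed the medians were 0.88 and 1.28.

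Splicing regulators leaned lower. In the list of CLK kinases and SR splicing factors 4 of 27 tested members rose and 10 fell [4 and 17], with a median of -0.29 [-0.33]. SRSF2, SRSF3 and SRSF7 went from 294, 264 and 393 to 98.9, 114 and 106 CPM, from 511, 544 and 768 to 311, 307 and 295 CPM and from 246, 244 and 322 to 124, 128 and 125 CPM, with log2 fold changes of -1.57, -1.0 and -1.11 (-1.39, -0.80 and -0.97 without control replicate 3). CLK4, a kinase of SR proteins, rose, from 26.3, 23.1 and 24.7 to 47.6, 50.7 and 52.3 CPM (log2 fold change 1.02 [1.02]). SRSF2 shares 36.7% of its exonic sequence with opposite-strand genes. Within the list of NRF2, iron and metal response 5 of 25 tested members rose and 10 fell [7 and 11 of 26], with a median of -0.31 [-0.17] or, with such bounds and without control replicate 3, -0.18, and 3 rose without ADI-PEG20 replicate 1, 2 or 3 or control replicate 2. SLC7A11, the cystine transporter and also an ATF4 target, went from 46.04, 46.3 and 11.03 to 135, 138 and 138 CPM (log2 fold change 1.98 [1.57]). MT2A, a metallothionein, went from 18.2, 19.5 and 49.99 to 4.49, 4.73 and 4.41 CPM (log2 fold change -2.68 [-2.05]), MT1X had a log2 fold change of -2.25 [-1.31] and shares 18.1% of its exonic sequence with same-strand genes, and TXN, thioredoxin, fell (log2 fold change -1.94 [-1.34]).

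The effect was then compared with that in RS4;11 for 10 genes, the 3 marks of the response and the first leading genes in each direction. The leading genes were chosen by the size of their effect in TOM-1, and the marks were given for this response. That effect is part of the difference, so passing was likely wherever RS4;11 moved little. Over all genes the difference of the effects passed the threshold for 11.9%, which is not a fair yardstick for genes chosen in this way. The values here are edgeR differences of log2 fold changes, TOM-1 minus RS4;11. TRIB3 rose more in TOM-1 by 3.60 (3.92 without control replicate 3), SESN2 by 1.85 (1.96) and CHAC1 by 1.42 (1.44). For SCD the difference was -3.32 (-3.58), for S100A4 -3.75 (-2.99), for CD52 -3.13 (-2.65) and for FRMPD1 -3.47 (-3.55), and for TREML2 it was 6.52 (6.16). The largest edgeR adjusted p of these 8 genes was 0.00218. SLC16A6 had a difference of 6.17 (edgeR adjusted p = 0.0315), and 5.74 without control replicate 3 (edgeR adjusted p = 0.00146). Of the 12 fits with 1 library dropped, 8 lost the call, and the highest adjusted p was 0.18. DMGDH was at 0 CPM in both groups of RS4;11, its fitted difference had no usable error, and it was not called. In RS4;11 the mean levels in control and treated libraries were 18.2 and 22.2 CPM for TRIB3, 23.4 and 27.6 CPM for SESN2, 5.91 and 8.69 CPM for CHAC1, 274 and 255 CPM for SCD, 171 and 147 CPM for S100A4, 7.36 and 6.76 CPM for CD52, 5.32 and 4.24 CPM for FRMPD1, and 0.895 and 1.46 CPM for TREML2. None of the 10 genes passed the test within RS4;11 with all libraries. TOM-1 control replicate 3 entered the estimate of spread in that test, so not passing does not show that RS4;11 did not respond. Without that library S100A4, SESN2 and TRIB3 did not pass within RS4;11 either (edgeR adjusted p = 0.160, 0.175 and 0.250).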

How the data were processed

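Poly(A) RNA of 12 libraries was sequenced, in 4 groups of 3, and the authors deposited raw read counts per gene. STAR, SAMtools, featureCounts and the hg38 build are named in the submitters' processing notes, without versions. The annotation release, the strand setting and the handling of multi-mapping reads are not given in the sources used here. The gene identifiers of the table carried symbols for 60463 of 60664 genes, and coordinates and exon overlaps came from GENCODE 29 on GRCh38, the same build, for the 58396 genes it holds. Exon overlap of 10% or more is named beside a gene.

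The counts were tested with the quasi-likelihood test of edgeR 4.0.16 in R 4.3.3, with filterByExpr, TMM scaling and 1 mean per group over the 12 libraries. Benjamini-Hochberg adjustment ran over all tested genes at 0.05, and standard errors are the log2 fold change over the square root of F. Every value was repeated without TOM-1 control replicate 3. The TOM-1 libraries held 21870281 to 35956959 counts, and intervals and floors cover counting error only, with 3 counts as the limit that a count of 0 allows. The fits were tested on simulated data with 200 changed genes: with 12 libraries 48 of 100 genes changed 2-fold and 90 of 100 changed 4-fold were recovered among 16660 genes, and without control replicate 3 85 and 100 of 100 among 17442. False calls numbered 7 and 11. The changed genes were drawn only from genes with higher expected counts, so recovery does not describe genes near 0. No difference between the lines and no single outlying library was simulated.

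The members and the 52 gene lists were chosen with earlier results of these data known, so lists are described by counts and medians, with no test of a list. Where genes at 0 in a whole group set to their bounds moved a quoted median, that median is given too. The named genes are the 12 leading genes in each direction, called in both fits with at least 5 CPM in 1 group and no overlap, up to 4 genes per list called in both fits, and 26 genes fixed by name. 3 leading genes and some genes of the lists are not reported here. Alternatives were DESeq2 1.42.0, its size factors, upper-quartile scaling, other filters, limma 3.58.1 voom with sample quality weights, the TOM-1 libraries alone, each library left out and a replicate block. Offsets for transcript length, and the block without control replicate 3, were chosen after seeing the data. Same-numbered control and treated libraries were not seen to deviate together, in a check that control replicate 3 dominated. The numbers were not used as pairs in the main fit. No 2 TOM-1 libraries of a group agreed within sampling noise. Promoter windows came from RefSeq on GRCh38.p14.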

Additional observations from a re-analysis of the deposited data

Results flagged for a closer look

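For 9 genes the effect of ADI-PEG20 differed between TOM-1 and RS4;11 by a test of the difference itself. They were chosen by, or given for, their response in TOM-1, which is part of that difference. Their number therefore does not measure how often the lines differed. The values are log2 effects in TOM-1 minus RS4;11 from edgeR. Among the marks of the response, TRIB3 differed by 3.60, SESN2 by 1.85 and CHAC1 by 1.42. The transporter gene SLC16A6 differed by 6.17 and the receptor gene TREML2 by 6.52, and both rest on levels near 0 in TOM-1 control. Dropping single libraries lost the call for SLC16A6 in 8 of 12 fits. Effects were lower in TOM-1 for S100A4 (-3.75), FRMPD1 (-3.47), SCD (-3.32) and CD52 (-3.13). The lines also differed in their control levels: SCD had a mean of 274 CPM in RS4;11 control and 109.9, 106 and 54.0 CPM in TOM-1 control. No explanation of these differences was tested.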

How the results depend on the processing

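The count of changed genes moved with the libraries used and with their weights. With the TOM-1 libraries alone 2639 genes changed, 1237 higher and 1402 lower, and 1670 changed at least 2-fold. With the same libraries and control replicate 3 left out, 4254 were higher. With sample quality weights 8434 changed, 4474 of them higher. DESeq2's Wald test called 6353. Over the fits that left out 1 TOM-1 library the count of changed genes ran from 3960 to 7616, of higher genes from 1820 to 3996, of lower genes from 2082 to 3620, and of genes changed at least 2-fold from 2244 to 3433. Genes with no overlap between groups ran from 8736 to 10602. With a library left out fewer libraries must separate, so this range is not comparable with the 8014 genes of the full groups. Among these fits the highest count of changed genes and the lowest count changed at least 2-fold came without control replicate 3. Of the 192 named genes called with all libraries, 192 were called in the same direction without that library. Apart from 26 genes fixed by name, this agreement was a condition of their choice, so it says nothing about robustness. The other counts were 190 by DESeq2, 190 with its size factors and with upper-quartile scaling, and 191 with quality weights. They were 192 with length offsets, and 176 to 181 without 1 ADI-PEG20 library. With the TOM-1 libraries alone 157 of 191 remained.

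No named gene that was called with all libraries changed sign in any of these settings. For the fit without control replicate 3 this followed, for most of them, from the way they were chosen. Uncalled genes near 0 changed sign. BCL2 (0.03) went to -0.26 without control replicate 3, -0.27 with the TOM-1 libraries alone and without that library, -0.37 with length offsets, -0.42 with these and without that library, -0.23 with quality weights, -0.026 with upper-quartile scaling and -0.04 without ADI-PEG20 replicate 2, and over the fits that left out 1 library it ran from -0.26 to 0.172. MCL1 (0.20) ran from -0.042 without control replicate 3 to 0.314, and was -0.056 with the TOM-1 libraries alone and without that library, -0.066 with length offsets and without it, and -0.029 with quality weights. PAX5 (0.28) ran from -0.0026 without control replicate 3 to 0.407, and was -0.016 with the TOM-1 libraries alone and without that library, -0.21 with length offsets and -0.20 with these and without that library. CCND2 (0.39) went to -0.15 with length offsets, and HK2 (-0.08) to 0.01 and 0.11 without control replicate 1 or 2, and to -0.38 without control replicate 3. The cause of these shifts was not tested.

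No pairing by replicate number was seen: deviations of same-numbered control and treated libraries correlated at -0.03, -0.01 and -0.06. The deviations were taken from the mean of each group, which control replicate 3 pulled away from the other controls. This check could therefore miss a pairing. With the replicate block 5324 genes were called, and 189 of the 192 named genes kept their call. With the block and without control replicate 3, BCL2 was at -0.21 and MCL1 at -0.0088. The adjusted p of the SLC16A6 difference between lines was 0.0612 with the block in edgeR.

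Depth limits genes near 0, such as ASS1, TREML2 and SLC16A6.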

Other observations

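Further gene families, chosen after their values were seen, leaned to one side. Members were taken by the start of their symbol alone, so non-coding genes with such names can be among them. Among genes named ZNF, many of which encode C2H2 zinc finger repressors, 140 of 507 tested genes rose and 31 fell, and without control replicate 3 it was 172 and 45 of 514. With length offsets and without that library, 161 rose and 55 fell. Genes named KLF, for Krüppel-like factors, rose in 6 of 13 cases and fell in 1, or 9 and 1 without that library, with KLF2, KLF3, KLF6, KLF7, KLF9 and KLF10 called higher in both fits. Of genes named KDM, for lysine demethylases, 7 of 20 rose and 1 fell, or 11 and 3, and KDM3A, KDM4A, KDM4B, KDM4C and KDM7A were called higher in both fits beside KDM6A and KDM6B.

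RNA polymerase subunits and related POLR genes lay on the other side, with 3 of 36 higher and 15 lower, or 4 and 19 without control replicate 3. DEAD-box helicases named DDX had 5 of 41 higher and 9 lower, and 5 and 22 of 43 without that library, so the count of lower genes depended on it. Long intergenic non-coding RNAs and processed pseudogenes had shares of calls under those of all genes, a difference that was not tested. Of the former 87 of 976 (8.91%) rose and 36 fell, or 133 (12.05%) and 44 of 1104. Of the latter 14 of 532 rose and 68 (12.8%) fell, or 27 and 55 (8.49%) of 648, and their reads can come from parent genes. Over all genes 15.9% were called in each direction, and 21.8% higher and 19.8% lower without control replicate 3, and the part of transcript length and of control replicate 3 in these counts was not tested further.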
